A study of Mus musculus with 3 samples.

Results

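The genes described here are the cytokines, the chemokines and their receptors on an expression array of mouse neural retina. A gene was taken when its probe set carried a single symbol that named any of the following kinds of gene. These were interleukins, CC or CXC chemokines, colony-stimulating factors (CSF) and interferons, each with their receptors. To these came genes of the tumour necrosis factor (TNF) ligand and receptor superfamilies whose symbol is Tnf or begins with Tnfsf or Tnfrsf. Genes of these superfamilies with other symbols, such as Lta and Fas, fell outside this rule. The receptor gene Csf1r was left out. The choice used symbols alone and gave 118 genes of 8251, from 138 of 12422 probe sets, with 1 probe set kept per gene. All 3 samples form 1 group, neural retinas of Rp1-/- mice in a mixed 129/SvEv and C57BL/6 background at postnatal day 21, collected between 1 and 2 pm. Each sample was total RNA pooled from the retinas of 3 to 4 mice and was read on a separate U74Av2 array. Retina of other genotypes was not analysed here. There is thus no contrast and no test, and every value describes Rp1-/- retina alone. Rp1 itself, a photoreceptor axoneme gene, had no probe set with its symbol.

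Cytokines are secreted proteins that immune and tissue cells use to signal to each other, and chemokines are the subset that directs cell migration. Most interleukin, interferon and CSF receptors lack enzyme activity and signal through bound JAK kinases and STAT transcription factors. Receptors of the TNF superfamily and of interleukin-1 signal through adaptor proteins to NF-kappaB, and chemokine receptors are coupled to G proteins. In the retina the resident immune cells are microglia, which depend on colony-stimulating factor 1, while Müller glia and neurons respond to gp130-type cytokines such as LIF and CNTF. Many inflammatory ligands are made in quantity only after injury or infection.

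The arrays carried retinal RNA, with 12 of 12 measured rod markers and 9 of 9 Müller glia markers above background on all 3 arrays. A signal was called above background when it exceeded the 95th percentile of the 19 bacterial and yeast control probe sets of its own array. These limits were 160.3, 80.7 and 107.1 for replicates 1, 2 and 3. Replicate 1 stood apart from the others. Over 12422 probe sets the Spearman correlation was 0.83 and 0.82 between replicate 1 and replicates 2 and 3, and 0.94 between replicates 2 and 3. The dim end of the array was brighter in replicate 1, where the median of the control probe sets was 44.5, against 19.0 in replicate 2 and 21.1 in replicate 3. Signals are linear array units. Each gene is compared only with itself across arrays, since the response of a probe set is its own. In a whole tissue, fewer cells of a type and less RNA per cell cannot be told apart.

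Cytokine, chemokine and receptor genes were above background on fewer arrays than the genes of the array as a whole, a difference that was not tested. Of the 118 genes, 22 (18.6%) passed the limit on every array, whereas 60.7% of all 8251 genes did. Another 53 (44.9%) were above background on no array, against 15.7% of all genes, and the remaining 43 (36.4%) passed on 1 or 2 arrays, against 23.6% of all genes. By role, 9 of 60 ligands and 13 of 55 receptors were above background throughout, and 33 ligands and 18 receptors were so nowhere. None of the 3 soluble antagonists passed on all arrays. The families differed in this count, with 6 of 23 interleukin receptors, 4 of 11 TNF receptors and 2 of 4 CSF receptors on all 3 arrays, but 0 of 13 chemokine receptors and 0 of 6 TNF ligands. These differences between families were not tested, and a family here holds only genes with names within the rule. Outside it, the chemokine receptors Cx3cr1, Xcr1 and Ackr1 and the TNF ligands Lta, Cd70 and Eda were on all arrays. The chemokine receptor Ackr3 and the TNF ligand Cd40lg were on 1 array, and the TNF ligands Ltb and Fasl on none. Without replicate 1, 37 of the 118 genes were above background on both remaining arrays, against 69.6% of all genes. The count of 22 became 13 when the limit was set at the 40th percentile of signals on an array, against 55.0% of all genes, and 77 with the median control probe set, against 85.8%.

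**Figure D1:**
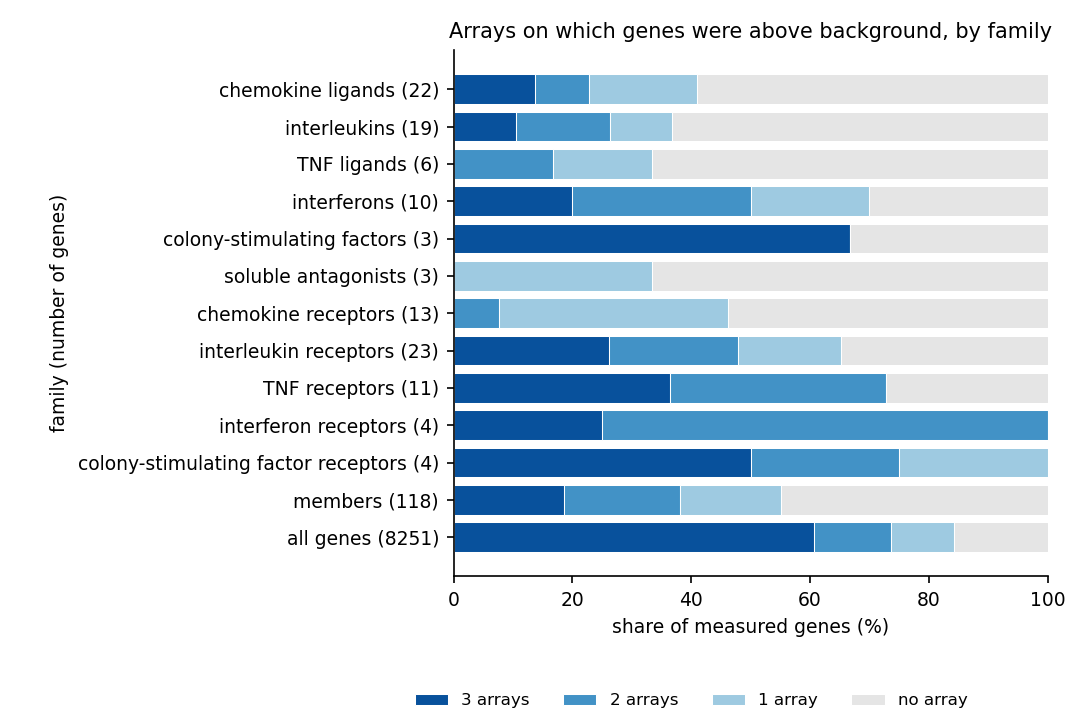
Share of measured genes (x axis, %) above background on 3, 2, 1 or no array for each family (y axis, with its number of genes), for the 118 cytokine, chemokine and receptor genes ("members") and for all 8251 genes. The darkest segment, genes on all 3 arrays, covers 18.6% of the 118 genes and 60.7% of all genes. Among the 118 it is absent from chemokine receptors, TNF ligands and soluble antagonists.

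Of the 3 colony-stimulating factors, growth factors of myeloid cells, 2 were above background on all arrays, a count too small to set against the 60.7% of all genes. Csf1, the growth factor of macrophages and microglia, had signals of 327, 336 and 487 in replicates 1, 2 and 3. Csf3, the granulocyte growth factor, had 753, 347 and 470. Csf1 was highest in replicate 3 and Csf3 in replicate 1, with a ratio of highest to lowest of 1.49 and 2.17. Csf2, which supports granulocytes and macrophages, was below background on every array, at 32.2, 2.50 and 19.7.

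Of the 22 chemokine ligands, 3 were above background on all arrays. Cxcl12, a stromal chemokine that retains and guides cells bearing Cxcr4, had 421, 259 and 341. Cxcl14, a chemokine made by healthy epithelia and other tissues, had 429, 403 and 427 (420 ± 14.9, SD, n = 3). This was the narrowest spread of the 22 genes on all arrays, a 1.07-fold range. Ccl6, a mouse chemokine of macrophages, lay close above the limits, with 179, 176 and 228.

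Of the other chemokine ligands, 13 were above background on no array. Among them were Ccl2 and Ccl7 (monocyte attractants), Ccl4 and Ccl5 (T cell and monocyte attractants), Cxcl1, Cxcl2 and Cxcl5 (neutrophil attractants) and the interferon-induced Cxcl9 and Cxcl10. The 13 ranged from 19.1 to 155 in replicate 1, from 6.61 to 53.1 in replicate 2 and from 7.60 to 102 in replicate 3. One of them, Ccl1, a T cell chemokine, was above background in replicates 1 and 3 at its other probe set, with 177, 48.9 and 249. The 4 chemokine ligands on 1 array included Ccl3, a macrophage chemokine, with 64.5, 120 and 57.1, the monocyte attractant Ccl12, with 83.1, 44.1 and 118, and the B cell attractant Cxcl13, with 53.7, 31.7 and 120. Ccl22, a chemokine of dendritic cells and macrophages, had 126, 242 and 568, of which the first missed its limit. The signal of replicate 3 was at least 3.55-fold that of replicate 1. Here and elsewhere, a fold given as at least was taken against the background limit of the dimmer array. Ccl9, a myeloid chemokine, was likewise dim in replicate 1, at 34.1, and had 255 and 133 in the others.

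Of 19 interleukins, 2 were above background throughout. Il18, an interleukin-1 family cytokine released after cleavage by caspase-1, had 355, 341 and 154. Il9, known as a product of T cells and mast cells, had 548, 181 and 484. Il18 was therefore lowest in replicate 3, and Il9 in replicate 2, with 2.30-fold and 3.03-fold ranges. The inflammatory interleukins Il1b and Il6 were on no array, with 23.6, 2.70 and 14.1 for Il6, while Il1a was on in replicate 3 alone, at 76.0, 44.1 and 112. Il10, Il2, Il4 and Il13, cytokines of T cell responses, were on no array either. The T cell cytokines Il5 (393, 75.5 and 180) and Il3 (173, 105 and 102) were each on 2 arrays. Tnf, the founding TNF ligand, had 104, 35.8 and 36.0, below the limit each time.

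Interferon probe sets need care, because type I interferon genes are near-identical copies and most of these probe sets carry the suffix for probes shared within a gene family. Ifna7 (279, 110 and 147) and Ifnab (198, 166 and 400) passed on all arrays. They were highest in replicate 1 and in replicate 3, so the copies did not follow a common order. Ifna5 had 156, 273 and 623, and only the first of these missed its limit. Ifng, the interferon of T and natural killer cells, was dim at 32.4, 3.71 and 10.7.

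Promoter sequence, which the choice of genes did not use, was compared for the 95 genes with a RefSeq promoter in the table (build GRCm38.p6, 250 bases before to 50 after the start site). On either strand, an NF-kappaB motif spelled GGNNTTTCC occurred in 19 of the 95, against 6.62% of 27025 genes. A STAT motif spelled TTCNNNGAA occurred in 24 (25.3%), against 9.55%, the interferon response motif GAAANNGAA in 22 (23.2%), against 9.76%, and TATAAA in 21 (22.1%), against 15.7%. The NF-kappaB and interferon response spellings were each shortened by 1 base after a first search, so their shares are not independent of that search. Matches of different motifs can share bases. Chemokine and interferon genes include related neighbours, so these promoters are not independent of each other. The NF-kappaB motif was present in 3 of the 17 promoters of genes on all 3 arrays, in 8 of 38 on 1 or 2 arrays and in 8 of 40 on no array. The stretches below, with each match in capitals, are shown because the same motif lies before 3 inflammatory ligands that were on no array and before Csf1, which was on all 3. They are written 5′ to 3′ on the strand of the gene and end before the start site.
Cxcl1: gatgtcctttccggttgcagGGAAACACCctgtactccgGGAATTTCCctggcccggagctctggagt
Cxcl2: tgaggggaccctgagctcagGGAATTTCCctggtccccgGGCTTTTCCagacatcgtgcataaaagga
Il6: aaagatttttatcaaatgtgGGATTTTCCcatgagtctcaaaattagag
Csf1: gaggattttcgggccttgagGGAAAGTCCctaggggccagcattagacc
The positions in GRCm38.p6 are chr5:90891136-90891203 (plus strand) for Cxcl1, chr5:90903783-90903850 (plus) for Cxcl2, chr5:30013051-30013099 (plus) for Il6 and chr3:107760595-107760643 (minus) for Csf1. The last base of the match lies 61 bases before the start site for the nearer match of Cxcl1, 68 for Cxcl2, 34 for Il6 and 145 for Csf1. The match in Csf1 and the farther one in Cxcl1 are the reverse complement of the spelling. A match is a description of these letters and does not show that a factor binds.

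Receptors for the gp130 family were among the receptors above background throughout. Il6st, the gp130 subunit shared by the receptors of interleukin-6, LIF and CNTF, had 841, 621 and 536, and its other probe set had 377, 290 and 246. Both probe sets were highest in replicate 1 and lowest in replicate 3. Il6ra, the subunit that binds interleukin-6, had 273, 120 and 263. Il27ra, a subunit of the interleukin-27 receptor that pairs with gp130, had 914, 570 and 1890. Replicate 3 was 3.32-fold above replicate 2 for Il27ra.

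The other interleukin receptors on all arrays were Il4ra, Il10rb and Il17ra. Il10rb, a shared subunit of the interleukin-10 family receptors, had 368, 317 and 496. Il17ra, the common subunit of interleukin-17 receptors, had 552, 289 and 298, and was highest in replicate 1. Its other probe set was above background in replicate 3 alone, at 148, 73.7 and 117. Il4ra, shared by the interleukin-4 and interleukin-13 receptors, lay close to the limits at 163, 95.7 and 237. The receptor alpha subunits Il2ra, Il3ra, Il5ra and Il10ra, which mark lymphoid or myeloid cells, were on no array. Il2rb (230, 59.7 and 169) and Il7r (42.2, 82.3 and 132), receptor subunits of lymphocytes, were each on 2 arrays.

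The 4 receptors of the CSF family were above background on at least 1 array each, and only 15.7% of all genes were on no array. Csf3r, the granulocyte CSF receptor, had 1054, 929 and 1254 (1079 ± 164, SD, n = 3). Its other probe sets went against this, with 68.4, 125 and 93.2 at the next and 74.1, 13.7 and 37.6 at the third. Csf2ra, the binding subunit for granulocyte-macrophage CSF, had 620, 306 and 242 and was highest in replicate 1. Csf2rb2, the mouse beta subunit used by interleukin-3, had 538, 96.6 and 90.8. Its signal in replicate 1 was at least 5.02 times that in replicate 3. Its other probe set was on no array and was not raised in replicate 1, with 30.8, 36.0 and 3.20. Csf2rb, the shared beta subunit and a near-identical copy of Csf2rb2, was above background in replicate 1 alone, at 233, 33.6 and 23.5.

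Of the TNF receptors, 4 passed on all arrays. Tnfrsf17, a receptor of plasma cells, had 428, 158 and 122, a 3.52-fold range with replicate 1 highest. Tnfrsf18, a receptor of regulatory T cells, had 211, 244 and 328. Tnfrsf11a, the receptor that drives osteoclast formation, had 165, 132 and 252. Tnfrsf8, a marker of activated lymphocytes, lay close above the limits at 184, 89.1 and 112. The death-domain receptor Tnfrsf1a, the main receptor for TNF, was 71.4 in replicate 1 and 295 in each of the others. A second Tnfrsf1a probe set, whose suffix marks relaxed design rules, passed on all 3 arrays with 328, 107 and 290, so the probe sets disagreed on replicate 1. Tnfrsf1b, the other TNF receptor, was near the limits at 148, 140 and 170.

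**Figure D2:**
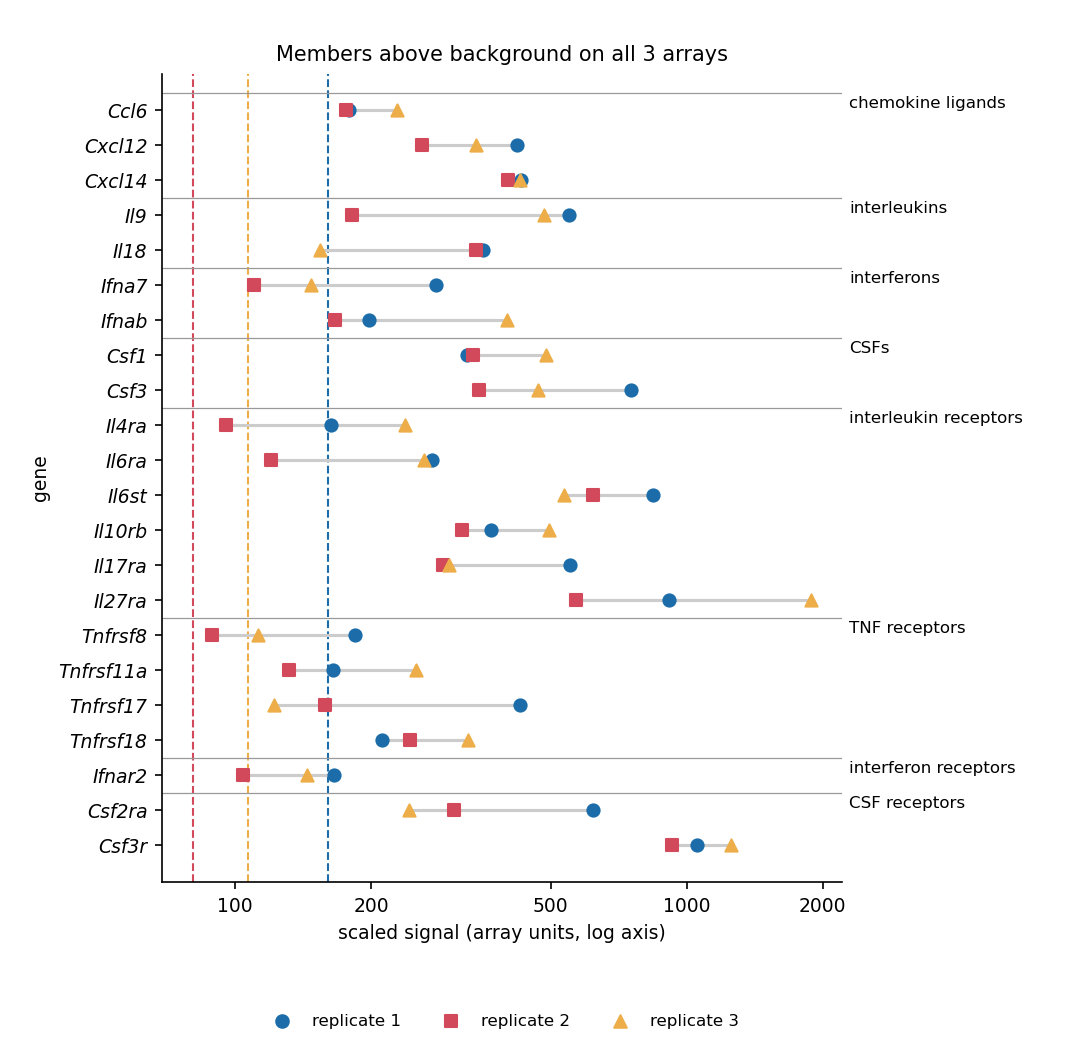
Scaled signal (x axis, array units, log axis) in each replicate for the 22 genes detected throughout, grouped by family (y axis). Points are single arrays, grey lines join the lowest and highest, and dashed lines are the background limits of 160.3, 80.7 and 107.1 for replicates 1, 2 and 3 in the matching colours, with Cxcl14 narrowest and Tnfrsf17 widest.

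All 4 interferon receptor genes were above background on at least 2 arrays, a count too small to set against all genes. Of all 8251 genes, 5006 were on all 3 arrays and 1070 on 2. Ifnar1, a subunit of the type I interferon receptor, had 72.9, 634 and 680. Only replicate 1 missed its limit, and replicate 3 was at least 4.24-fold above replicate 1. Ifnar2, the other subunit, was on all arrays but close to the limits, at 165, 104 and 144. The interferon-gamma receptor subunits Ifngr1 (115, 294 and 285) and Ifngr2 (119, 398 and 226) were both below the limit in replicate 1 alone. Il15ra, which presents interleukin-15, followed with 148, 220 and 331.

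Of the 23 genes on 2 arrays, 15 were above background in replicates 2 and 3 and below it in replicate 1, 5 in replicates 1 and 2 and 3 in replicates 1 and 3. The limit was highest in replicate 1. Of the 23 genes 8 (34.8%) were above background in replicate 1, against 31.5% of all genes on 2 arrays.

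**Figure D3:**
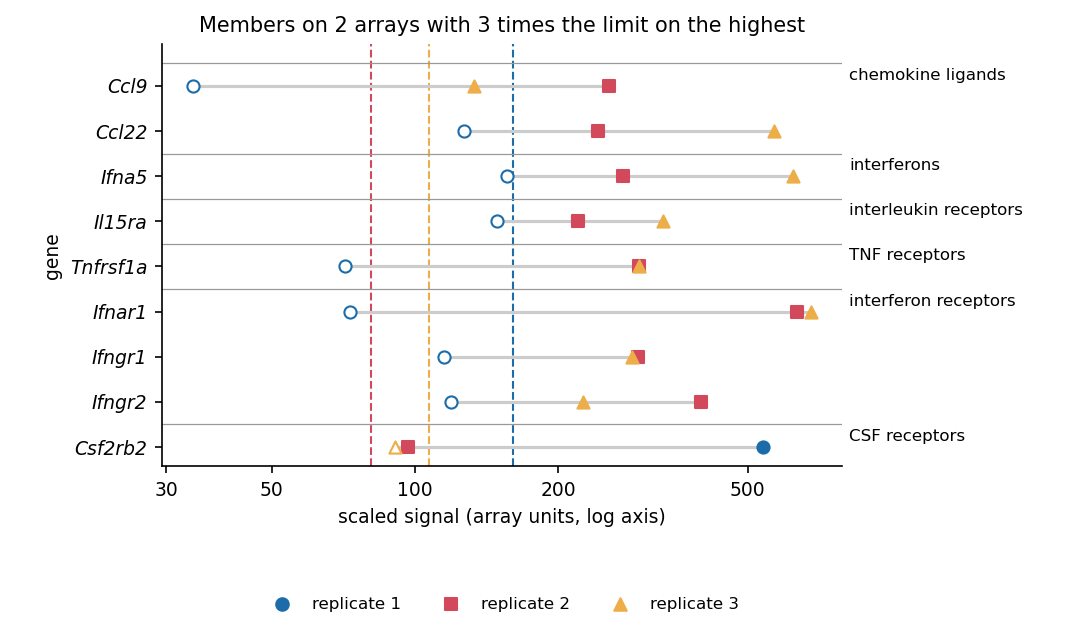
Scaled signal (x axis, array units, log axis) in each replicate for the 9 genes above background on 2 arrays whose highest signal was at least 3 times the limit there. Filled points are above the limit of their array (dashed lines) and open points are not. Of the 9 genes, 8 have their open point in replicate 1. The choice favoured such genes, since 3 times the limit asks for most signal in replicate 1. The limits were 160.3, 80.7 and 107.1. Of all genes on 2 arrays, 31.5% were above background in replicate 1.

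Some interleukin, receptor and antagonist genes were above background in replicate 1 alone. Of the 20 genes on 1 array, 10 were on in replicate 1, 5 in replicate 2 and 5 in replicate 3. The following were named after their values were seen. Il12a, a subunit of interleukin-12, had 431, 17.2 and 10.2, and Il12rb2, a subunit of its receptor, had 452, 43.2 and 20.6. Il18r1, the interleukin-18 receptor, had 306, 23.1 and 21.6, and the antagonist Il18bp had 381, 37.7 and 62.7. Replicate 1 exceeded replicate 2 at least 5.34-fold for Il12a, 5.60-fold for Il12rb2, 3.80-fold for Il18r1 and 4.73-fold for Il18bp. Their partner subunits differed in the arrays on which they passed, though Il12rb1 and Il18rap were also highest in replicate 1. Il12b (54.9, 72.0 and 27.0) and Il12rb1 (126, 25.6 and 37.0) were on no array. Il18rap, the other chain of the interleukin-18 receptor, was on in replicates 1 and 2, at 407, 89.0 and 81.6. Markers of T cells, B cells, mast cells and granulocytes had a summed signal of 5133, 2030 and 2531 over 21 measured genes in replicates 1, 2 and 3, and 16 of the 21 were highest in replicate 1. Others went against this, and the granulocyte genes Elane (154, 232 and 328), Mpo (32.2, 92.2 and 150) and Camp (387, 86.2 and 474) and the T cell gene Cd3e (91.4, 27.0 and 111) were highest in replicate 3. Of these 21 markers 4 were on all arrays, 4 on 2 arrays, 8 on 1 and 5 on none. Of all genes, 60.7% were on all arrays and 15.7% on none. Among all genes, the share highest in replicate 1 was 42.6% on all arrays, 30.6% on 2, 53.8% on 1 and 69.0% on none. Cd3g, a subunit of the T cell receptor complex, had 454, 10.8 and 14.5, while Cd3d and Cd8a were on no array. The part of these cells in the signals of replicate 1 was not tested. Among all genes on 1 array, 43.4% were on in replicate 1.

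Pairs with both genes on all arrays were few, but so were the ligands (9 of 60) and receptors (13 of 55) on all arrays. No share of pairs expected from these counts was computed. Of 60 ligand and receptor pairs listed from textbook knowledge, 42 had both genes measured, and in 1 of them, Csf3 and Csf3r, both were on all 3 arrays. In 8 pairs the receptor was on all arrays and the ligand on fewer. In 5 of these the ligand was on no array: Il6 for Il6ra, Il4 for Il4ra, Il17a for Il17ra, Csf2 for Csf2ra and Tnfsf8 for Tnfrsf8. In the others it was on 1 or 2 arrays: Tnfsf11 (28.6, 5.61 and 129) for Tnfrsf11a, Ifnb1 (43.3, 85.8 and 18.4) for Ifnar2 and Il16 for Cd4. The reverse held in 3 pairs. Cxcr4, the receptor of Cxcl12, had 39.9, 13.4 and 60.1 and was on no array, and so was Il9r (37.7, 11.9 and 45.1), the receptor of Il9. Il18r1, described above, was on in replicate 1 alone.

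**Figure D4:**
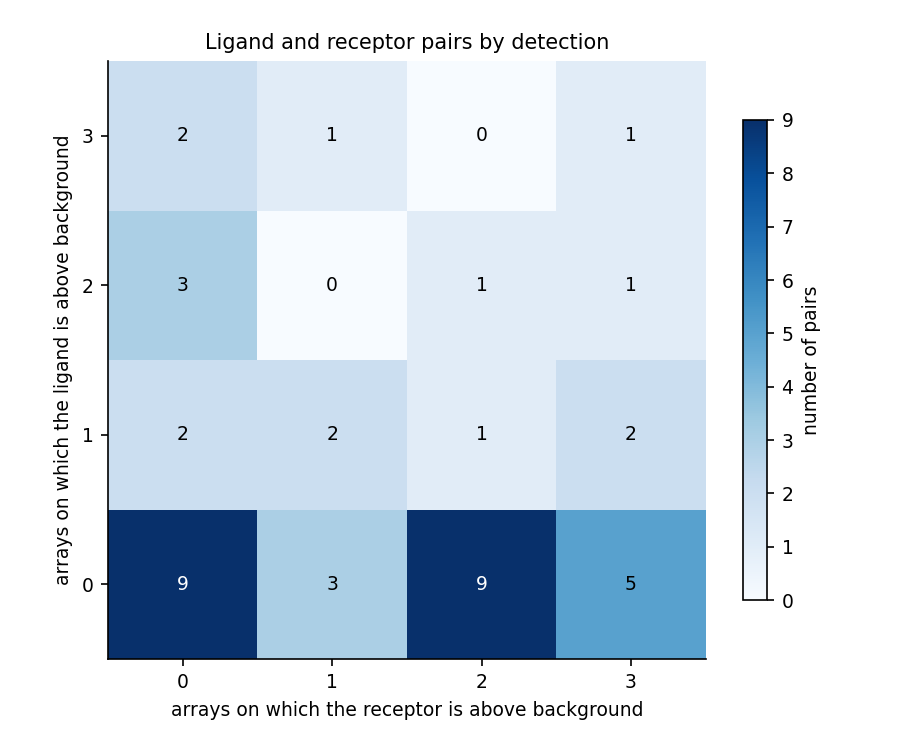
Number of ligand and receptor pairs (colour and printed count, 42 in all) by the number of arrays on which the ligand (y axis) and the receptor (x axis) were above background. The bottom row holds the ligands on no array, with 9 pairs where the receptor was on none, 9 where it was on 2 and 5 where it was on 3.

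The 22 genes on all arrays varied between pools. Their median range, the highest minus the lowest signal on the log2 scale, was 0.99, against 0.69 over the 5006 genes on all arrays. With arrays scaled to a common median the values were closer, 0.84 against 0.81. A range of 1 or more, a 2-fold difference between arrays, was reached by 11 of 22, against 28.3% of all genes on all arrays. Dim genes spread more, and among genes with a mean signal under 500 these were 9 of 18 cytokine genes and 39.5% of 1954 genes. Scaling the arrays to a common median, or quantile normalization, lowered the count to 7 of 22, against 34.2% and 25.5% of all genes under the same scalings, and without replicate 2 it was 7 of 25, against 17.8%. The genes with the widest ranges were Tnfrsf17 (1.81), Il27ra (1.73), Il9 (1.60), Csf2ra (1.36) and Ifna7 (1.34).

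Replicate 2 gave the lowest signal for most of the 22. Of them 13 were highest in replicate 1, 0 in replicate 2 and 9 in replicate 3, against 42.6%, 33% and 24.4% of all genes on all arrays. Replicate 2 held the lowest value of 16 of the 22, against 32.4% of all such genes. The scaling bears on this, since scaling to a common median moved the median log2 signal of all probe sets by -0.22, 0.23 and 0.02 in replicates 1, 2 and 3. Then 7 of the 22 were highest in replicate 1, 3 in replicate 2 and 12 in replicate 3, against 55.2% of all genes in replicate 2, and quantile normalization gave 9, 2 and 11, against 39.1%, 34.3% and 26.5% of all genes. Without replicate 1, 28 of 37 genes were higher in replicate 3 than in replicate 2, against 48.8% of all genes. Without replicate 3, 25 of 27 were higher in replicate 1 than in replicate 2, against 54.6% of all genes. All these counts rest on unequal limits, 160.3, 80.7 and 107.1, so a dim gene passed with less signal in replicate 2. Of the 22, 18 had a mean signal under 500, against 1954 of the 5006, and no share at like brightness was computed. The highest of the 3 limits was also set on every array, after the data were seen. Then 7, 0 and 7 of 14 genes were highest in replicates 1, 2 and 3, against 38.6%, 35.7% and 25.7% of all genes. Blood, pigment and connective tissue markers differed between the same pools. The summed signal of 5 red blood cell markers was 5535, 31736 and 8295, that of 5 pigment cell markers 1422, 12026 and 7835, and that of 10 connective tissue markers 2963, 4736 and 5444. Highest in replicate 2 were 3 of the 5 red blood cell and 5 of the 5 pigment cell markers, and 7 of the 10 connective tissue markers were highest in replicate 3. On all arrays were 2, 2 and 6 of these markers, and of them all Epb42, a red cell membrane gene, was alone in being on no array. Microglia and macrophage markers summed to 3725, 3305 and 3843 over 16 genes. Of these 5 were on all arrays and 6 on none, against 60.7% and 15.7% of all genes. The single genes moved in different directions, with 7 of the 16 highest in replicate 1, 4 in replicate 2 and 5 in replicate 3. C1qc, a complement gene of microglia, had 220, 837 and 847, and Tyrobp, a signalling adaptor of myeloid cells, had 470, 167 and 161. C1qa, another complement gene, had 773, 525 and 550, while the macrophage markers Itgam and Ptprc were on no array. The part of these cells in the cytokine signals was not tested.

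**Figure D5:**
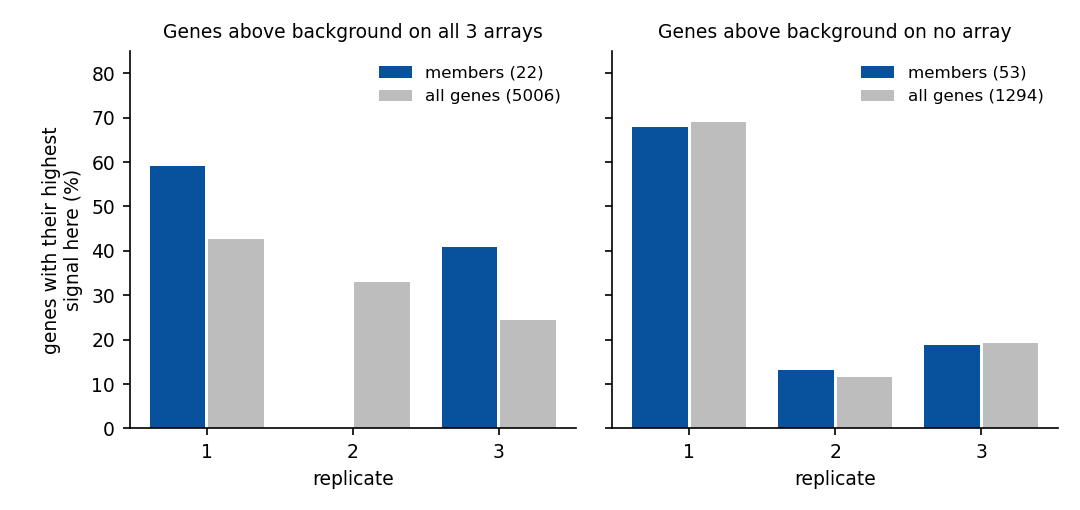
Share of genes (y axis, %) whose highest signal fell in each replicate (x axis), for the cytokine, chemokine and receptor genes ("members") and all genes, among genes on all 3 arrays (left) and on no array (right). On no array, 67.9% of the 53 cytokine genes and 69% of all 1294 genes were highest in replicate 1. On all arrays none of the 22 was highest in replicate 2, where 33% of all genes were. The limits differed, at 160.3, 80.7 and 107.1 in replicates 1, 2 and 3.

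Of 16 measured JAK, STAT and SOCS genes, 11 were on all arrays and 2 on none, where 60.7% of all genes were on all arrays. Jak1 and Jak2, the kinases bound to many cytokine receptors, had 741, 855 and 752 and 370, 347 and 297. Jak1 differed 1.15-fold between arrays. Cish, a STAT-induced inhibitor of cytokine signalling, had 1068, 268 and 537, and was highest in replicate 1. Socs1, an inhibitor of the same family, had 226, 160 and 118.

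Of 20 measured genes of TNF receptor and NF-kappaB signalling, 11 were on all arrays and 3 on none. Of all genes, 60.7% were on all arrays and 15.7% on none. Tradd, the adaptor of TNF receptor 1, had 232, 909 and 1562. Tnfaip3, an NF-kappaB target that limits the pathway, had 407, 1362 and 1109. Both were lowest in replicate 1, while Map3k7, a kinase of the pathway, was highest there at 365, 158 and 118. Among the interleukin-1 and Toll adaptor genes 2 of 4 were on all arrays, Irak1 (465, 293 and 501) and Tollip (833, 708 and 1007). This count is too small to set against all genes. Myd88 was below the limit in replicate 1, at 74.1, 142 and 301.

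Of 31 measured cytokine-family genes with names outside the rule, 15 were on all arrays and 6 on none, against 60.7% and 15.7% of all genes. Lifr, the LIF receptor that pairs with gp130, had 1377, 887 and 879. Like Il6st, it was highest in replicate 1. Osmr, the oncostatin M receptor, was lowest there instead, with 234, 476 and 376. Cntfr, the CNTF receptor subunit, had 388, 126 and 212. Lta, a lymphotoxin of lymphocytes, had 776, 320 and 801 and was lowest in replicate 2.

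The summed signal of 9 endothelial markers was 3627, 2340 and 2828. Of them 5 were on all arrays and 1 on none, against 60.7% and 15.7% of all genes. In replicate 2 lay the lowest signal of 5 of the 9, among them Pecam1, an endothelial adhesion gene, with 629, 286 and 363. Eng, an endothelial co-receptor of transforming growth factor beta, was lowest in replicate 1 (450, 582 and 597), and Cdh5, an endothelial cadherin, in replicate 3 (221, 97.7 and 84.1). Their part in the cytokine signals was not tested.

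A second probe set often gave another answer. Of the 118 genes, 16 had several probe sets, and in 12 of these the probe sets were above background on different numbers of arrays. Cxcl12 was on 2 arrays at another probe set, with 102, 95.4 and 120, and in replicate 3 alone at a further one, with 28.3, 64.7 and 127. Ifnar2, Tnfrsf8, Tnfrsf9 and Csf2rb2 were on no array at their other probe sets. Il4ra was on 2 arrays, at 213, 92.3 and 31.9, with its lowest value in replicate 3 where the kept probe set had its highest. The 102 other genes rest on 1 probe set each.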

How the data were processed

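Total RNA of 3 pools of Rp1-/- neural retina was measured on 3 one-colour Affymetrix-type arrays, named U74Av2 per the labels. The deposited table holds 1 linear intensity per probe set and array, with none at or below 0. The software, background correction and scaling target are not given in the sources used here. As deposited, the trimmed mean (2% at each end) lay between 500.2 and 500.3 on every array. Replicate numbers only name samples. Each array was multiplied by a factor of 0.998 to 1.00 that made these trimmed means over 12422 non-control probe sets equal. No detection calls were used. The number of arrays limits the precision, and the spread covers the 3 pools.

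Symbols came from the platform annotation, and all 118 matched the gene table of GRCm38.p6. For genes with several probe sets, a plain suffix was preferred, then the highest mean. Control probe sets and 11 probe sets whose several symbols include a matching name were left out. Members, families, lists, motifs and pairs were chosen with earlier results of these data known, and the NF-kappaB and interferon response motifs were each shortened by 1 base after a first search. Named with their values were genes on all 3 arrays and genes on fewer arrays that reached 3 times the limit where highest. Named too were the ligand or receptor partners of genes on all 3 arrays, some of them without values. Of each further list, the first 2 genes and the 4 widest-ranging genes on all arrays could be named. Any other gene named was picked after its values were seen. Alternatives to the limit, scaling, pseudocount, range threshold and probe set were tried, and each replicate was left out in turn. The computation was tested on simulated data. The software was Python 3.11.15, numpy 2.4.6 and pandas 2.3.3.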

Additional observations from a re-analysis of the deposited data

How the results depend on the processing

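No paired analysis was possible because the series holds 1 group. The count of 22 genes on all arrays was 15 when the limit was the highest control probe set, 13 with the 40th percentile of each array and 77 with the median control probe set, which left 8 genes on no array instead of 53. It was 14 with the highest of the 3 limits on every array, an alternative chosen after seeing the data, and 37, 25 and 27 without replicates 1, 2 and 3. These 14, 15 and 13 genes all belonged to the 22. The count of genes on no array was 58 to 63 without a replicate. The count of ranges of 1 or more, 11 of 22, was 5 with the 40th percentile and with the common limit, and 57 of 77 with the median control. It was 7 with median scaling, quantile normalization or 50 added before log2, and 3 at a threshold of 1.5. Without replicates 1, 2 and 3 it was 9 of 37, 7 of 25 and 10 of 27. The median range of 0.99 was 0.47 to 0.70 without a replicate, and that of all genes was 0.34 to 0.52. A range over 2 arrays cannot exceed the range of the same gene over 3. Of the genes on all arrays, those highest in replicate 1 were 7 with the 40th percentile, the common limit or median scaling, and 45 with the median control. They were 16 of 25 without replicate 2 and 25 of 27 without replicate 3. In replicate 2 they were 9 with the median control, 3 with median scaling, 2 with quantile normalization and 2 to 9 without a replicate. In replicate 3 they were 4 with the highest control, 23 with the median control and 9 to 28 without a replicate. For 31 named genes, 120 of 124 mean signals and 114 of 124 ranges moved by less than 1 SD under other scalings or probe sets. Without a replicate, 62 of 93 ranges and all 93 mean signals did so, but both counts were fixed in advance. Leaving out 1 of 3 values cannot move their mean by 1 of their SD. It moves their range by more than 1 SD for 1 of the 3 values and by less for the others. Dim signals, Tnfrsf8 and Ifnar2 among them, lie near the limits, where replicate 1 was brighter than the others.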
